A study of Mus musculus with 3 samples.

Results

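The Ets factors of the endothelial lineage were taken here as the 9 genes Etv2, Erg, Fli1, Ets1, Ets2, Elk3, Etv6, Elf1 and Gabpa. Their peaks were every distinct entry of the deposited Isl1 peak list whose gene symbol was 1 of these names. This gave 5 of 14082 peaks, at 4 of the 9 genes. No entry of these genes was repeated in the list.

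Isl1, which marks progenitors of the second heart field and binds DNA through a LIM-type homeodomain, was mapped by ChIP-Seq in cardiac progenitor cells (CPCs) collected at day 5 of directed differentiation. All CPCs came from 1 mouse embryonic stem cell line, E14 Tg(Nkx2-5-EmGFP), which carries a fluorescent reporter of the cardiac gene Nkx2-5, with no genetic change or treatment that set groups apart, and were grown with BMP4, Activin A, VEGF, bFGF and FGF10 in turn. The 3 samples were 2 chromatin immunoprecipitations with a monoclonal Isl1 antibody from the Developmental Studies Hybridoma Bank (DSHB) and 1 input with no antibody, and the deposited list combined both immunoprecipitations. It held positions, distances and gene names but no peak height or read number, so the depth is unknown, no value below carries a replicate error, and no difference could be tested against one.

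Ets proteins share a winged helix-turn-helix domain that binds DNA around a GGAA core, which reads TTCC on the other strand. Etv2 starts the endothelial and blood programme in early mesoderm, where cardiac and endothelial fates part. Fli1, Erg, Ets1 and Ets2 then act in endothelial cells on shared enhancers, and most endothelial enhancers hold Ets sites. No expression was measured in these files, so the lineage name describes what the genes are known for and not what the cells were.

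The peaks lay either over gene starts or on repeated sequence away from them, and 1 stretch of 200 bases is shown for each. The peak that covered the start of Elf1 is included, although the list assigned it to the neighbouring gene Wbp4. Each stretch was read 5′ to 3′ from the plus strand of mm9, as close to the peak midpoint as annotated exons of coding transcripts allowed. At Ets1, Ets2 and Elf1 the stretch was therefore not the central 200 bp, to which the values given below for peak centres belong. Capitals mark GGAA, TTCC and the Gata-type strings AGATAA and TGATAA on either strand.
Ets1, chr9:32503427-32503626, ending on the base before the assigned transcription start site (TSS): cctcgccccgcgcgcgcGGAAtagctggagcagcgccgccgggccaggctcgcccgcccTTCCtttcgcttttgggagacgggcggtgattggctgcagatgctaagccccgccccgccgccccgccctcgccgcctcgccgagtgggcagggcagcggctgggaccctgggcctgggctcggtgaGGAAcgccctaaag
Ets2, chr16:95923482-95923681, ending on the base before the first annotated TSS: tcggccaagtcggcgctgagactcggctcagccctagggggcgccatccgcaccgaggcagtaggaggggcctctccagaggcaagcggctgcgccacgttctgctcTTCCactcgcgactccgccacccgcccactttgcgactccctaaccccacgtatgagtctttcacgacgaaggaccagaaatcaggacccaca
Elf1 (peak named Wbp4), chr14:79881445-79881644, in the first intron of Elf1: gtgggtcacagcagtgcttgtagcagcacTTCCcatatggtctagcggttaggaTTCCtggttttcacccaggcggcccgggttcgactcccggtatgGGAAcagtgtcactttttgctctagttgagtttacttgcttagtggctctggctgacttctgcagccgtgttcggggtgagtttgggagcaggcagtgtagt
Fli1, chr9:32401103-32401302, between Fli1 and Ets1: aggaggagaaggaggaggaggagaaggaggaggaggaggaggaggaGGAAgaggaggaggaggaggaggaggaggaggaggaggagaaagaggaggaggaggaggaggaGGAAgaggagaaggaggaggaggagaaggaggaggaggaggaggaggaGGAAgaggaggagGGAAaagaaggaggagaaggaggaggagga
Erg, chr16:95725387-95725586, in an intron of Erg: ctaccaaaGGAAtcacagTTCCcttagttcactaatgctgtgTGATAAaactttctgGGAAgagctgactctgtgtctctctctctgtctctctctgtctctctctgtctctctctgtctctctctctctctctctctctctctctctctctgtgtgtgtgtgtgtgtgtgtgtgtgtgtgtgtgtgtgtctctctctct
Erg, chr16:95731568-95731767, in an intron of Erg: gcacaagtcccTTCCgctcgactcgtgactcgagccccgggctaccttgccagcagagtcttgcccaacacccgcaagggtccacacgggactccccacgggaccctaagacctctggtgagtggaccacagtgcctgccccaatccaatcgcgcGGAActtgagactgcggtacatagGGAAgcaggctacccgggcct

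The Ets1 stretch had a GC content of 74.5% and 25 CpG dinucleotides, and the Ets2 stretch had 64.5% and 18. The Fli1 stretch was built of A and G alone, 80 and 120 of its 200 bases, in runs of the triplet GGA. The first Erg stretch held 140 C or T bases, among them runs of alternating C and T, and an alternating G and T run of 39 bases. It had 0 CpG dinucleotides. The Elf1 stretch, which began directly after the first exon of Elf1, had 54.5% GC and 7 CpG dinucleotides, fewer than the second Erg stretch with 63.5% and 13, and RefSeq (GRCm38.p6) lists a tRNA gene of 72 bases, n-TEttc4, within Elf1.

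Of the 9 Ets factors, 4 (44.4%) had an assigned peak, beside 8217 of 21887 protein-coding genes, or 37.5%. Within 1 kb of the assigned TSS, 2 of the 9 (Ets1 and Ets2) had a peak, beside 23.2% of protein-coding genes. Counted by position alone, 3 of the 9 (Ets1, Ets2 and Elf1) had an annotated coding TSS inside a peak, beside 26.2% of 20288 annotated genes. The 9 genes thus held peaks about as often as genes at large by each count, and what set them apart from one another was where the peaks lay and in what kind of sequence.

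**Figure D1:**
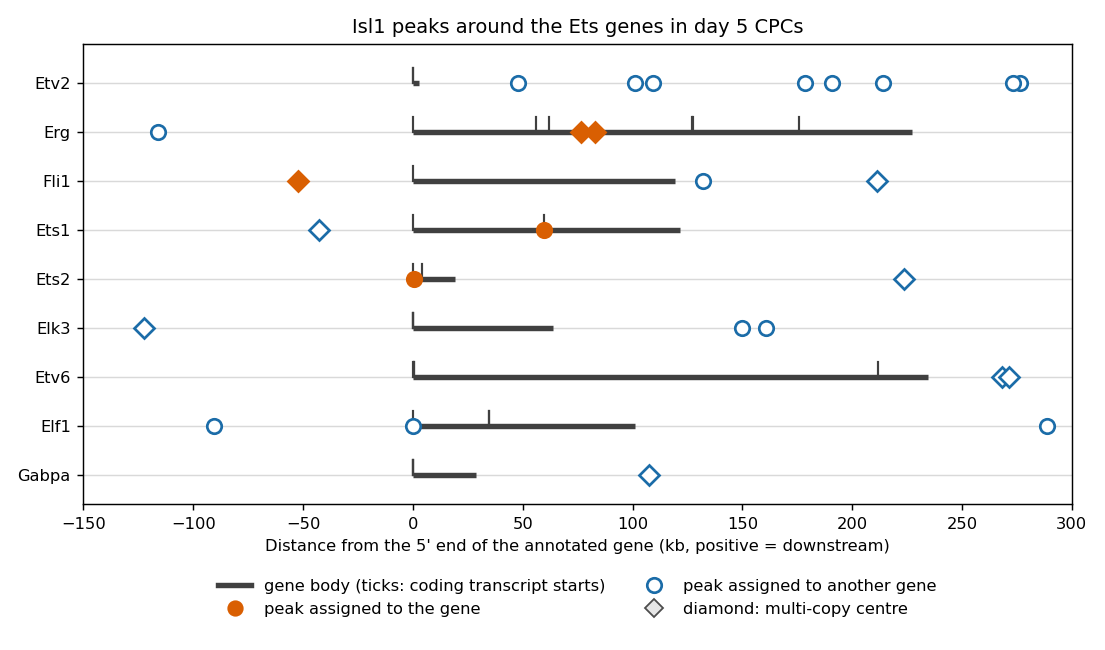
Peaks around the 9 Ets factors, by distance in kb from the 5′ end of each annotated gene (x axis) with the genes as rows, the gene body as a bar and coding TSSs as ticks. Filled orange symbols are the 5 peaks assigned to the gene and open blue symbols are peaks with another gene's name, with diamonds for multi-copy centres: the assigned peaks of Ets1 and Ets2 sat on a TSS and those of Erg and Fli1 did not.

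Ets1 and Ets2, the founding pair of the family and targets of Ras and MAP kinase signalling, had 1 peak each, and both peaks covered a TSS. The Ets1 peak (chr9:32503093-32504148, mm9) was 1055 bp wide and its midpoint lay 7 bp upstream of the assigned TSS at position 32503627, from which 3 of the 4 annotated coding transcripts start. The other transcript starts 59821 bp upstream, at position 32443806, and no peak edge came within 42178 bp of that TSS. By that longer transcript the midpoint of the peak was intronic. Among the annotated coding starts of Ets1, only the internal one was inside a peak.

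The Ets2 peak (chr16:95923446-95924723) was 1277 bp wide, with a deposited distance of 70 bp downstream of the assigned TSS. It covered the annotated TSS at position 95923682, 402 bp from its midpoint, and the midpoint lay in an exon as a UTR. A second annotated Ets2 TSS at position 95927946 lay 3223 bp from the peak edge. Here too 1 of the annotated starts was inside the peak and the other was not.

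Both peaks were in sequence that occurs once in the genome. The median copy number of the 31-base words (31-mers) in the central 200 bp was 1 for each. The central GC content was 77.0% for Ets1 and 72.0% for Ets2, and the ratio of observed to expected CpG was 0.879 and 0.871. The 5416 peaks within 1 kb of a TSS had medians of 74.0% and 0.93 and a median width of 1050 bp. Ets1 and Ets2 were close to these on each measure.

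Elf1, an Ets factor of blood and endothelial cells, had no entry under its own name. A peak of 1834 bp (chr14:79880280-79882114) nevertheless covered its first TSS at position 79881001, 196 bp from the midpoint. The list gave this peak to Wbp4, which encodes a splicing factor and starts on the opposite strand at position 79881075, 122 bp from the midpoint. The peak was wider than 95.1% of all peaks, its centre was single-copy with 75% GC and an observed to expected CpG ratio of 0.968, and its midpoint lay in an Elf1 exon, as a UTR. The 2 internal Elf1 TSSs, at positions 79915481 and 79915493, were 33367 and 33379 bp from the nearest peak edge.

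A peak over a pair of starts was uncommon in the list. Of 5191 peaks that covered a coding TSS, 260 (5.01%) covered TSSs of more than 1 protein-coding gene. Of 5324 genes with a TSS inside a peak, 364 (6.84%) had no peak under their own name, as Elf1 did. A search by gene name alone therefore left out Elf1, although a peak covered its start. Counted by peaks in the gene body or within 10 kb of a TSS, 4 Ets factors again had a peak, with Elf1 in and Fli1 out.

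Erg and Fli1, a closely related pair of endothelial Ets factors, had 3 of the 5 peaks, and each of these lay beyond 10 kb from the assigned TSS. The first Erg peak (chr16:95725217-95725757) was 540 bp wide, narrower than all but 8.73% of peaks, and 26485 bp downstream of the assigned TSS at position 95751972. The second Erg peak (chr16:95730446-95732889) was 2443 bp wide, wider than 98.9% of all peaks, and 20305 bp downstream of that TSS. The pair of Erg peaks were 4689 bp apart and both lay in an intron of Erg.

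Erg has 6 annotated coding TSSs, and none was inside a peak. The closest, at position 95746210, was 13321 bp from the edge of the 2443 bp peak, and its midpoint distances were 14543 bp to that peak and 20723 bp to the 540 bp peak. The genes on either side were far away. Kcnj15, a potassium channel gene, lay 203620 and 209800 bp from the midpoints, and Ets2 lay 198195 and 192015 bp from them. The gene start nearest to either peak was thus one of Erg itself.

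The Fli1 peak (chr9:32400777-32401628) was 851 bp wide and lay between genes, with a deposited distance of 52165 bp upstream of Fli1. From the annotation, its midpoint lay 52228 bp from the start of Fli1 and 42604 bp from the upstream start of Ets1. The list named Fli1 and the annotation's closest coding TSS named Ets1, so the assignment turned on which Ets1 transcripts were considered. Fli1 has 1 annotated coding TSS, at position 32348974, and it was 51803 bp from the nearest peak edge.

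The 3 peaks of Erg and Fli1 differed from those of Ets1 and Ets2 in how often their sequence recurs in the genome. The median copy number of the 31-mers in the centre was 79.5 for the Fli1 peak, 584 for the 540 bp Erg peak and 2227.5 for the 2443 bp Erg peak, where a median of 2 or more is called multi-copy. With words of 75 bases these medians were 1, 1 and 645.5. Over whole peaks, with 31-mers, they were 1, 1 and 2157. The Fli1 peak and the 540 bp Erg peak thus held a simple repeat at the centre inside sequence found once, while the 2443 bp Erg peak was repeated along its length.

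The placement of reads with more than 1 possible origin may bear on these 3 peaks, and its part in them was not tested. By 75-mers the Fli1 peak and the 540 bp Erg peak were single-copy. Multi-copy centres by 31-mers were common in the list. Of 7193 peaks beyond 10 kb from the assigned TSS, 81.2% were multi-copy, as against 2.57% of the peaks within 1 kb. Over all peaks the share was 46.5%, and among the peaks of the Ets factors it was 3 of 5.

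**Figure D2:**
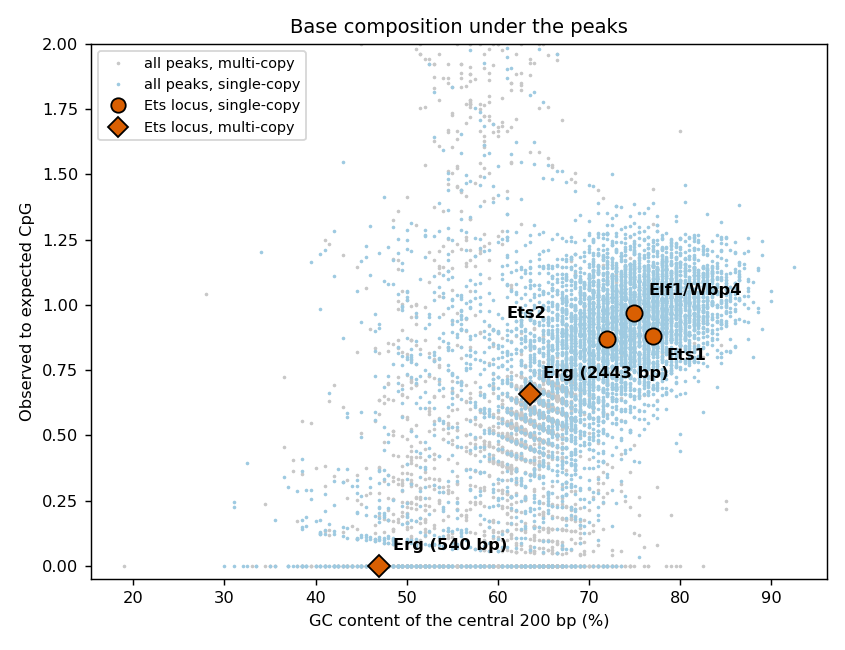
GC content (x axis, %) against the ratio of observed to expected CpG (y axis, shown to 2) in the central 200 bp of all peaks, as small points in grey for multi-copy and blue for single-copy centres. The large orange circles of Ets1 (77.0%, 0.879), Ets2 (72.0%, 0.871) and the Elf1/Wbp4 peak (75%, 0.968) lie together in the single-copy cloud, and the diamonds mark the Erg peaks. The Fli1 centre holds no C, so it has no ratio and is not drawn.

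Base composition split the same peaks the same way. The GC content of the centre was 60.0% for Fli1, 47.0% for the 540 bp Erg peak and 63.5% for the 2443 bp Erg peak, with a median of 63.5% over peaks beyond 10 kb. The observed to expected CpG ratio was 0 in the centre of the 540 bp Erg peak and 0.66 in that of the 2443 bp peak. It has no value in the Fli1 centre and was 0.0419 over the whole Fli1 peak.

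Ets strings were searched as GGAA and as the longer CCGGAAGT, on both strands. In the central 200 bp, which at Ets1 and Ets2 differ from the stretches printed above, GGAA stood in all 5 peaks, with 1 match in Ets1, 3 in Ets2, 4 in Fli1 and 3 in each Erg peak. This short string was also in 76.5% of all peak centres, in 89.1% of windows 2 kb to either side and in 88.1% of the 200 bp before annotated coding TSSs, so most windows of this size held it. In the Fli1 centre the matches belonged to the GGA repeat. CCGGAAGT was in none of the 5 peaks over their whole width, beside 3.1% of all whole peaks. It was in 0.639% of all centres and 3.61% of promoters.

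The LIM-homeodomain type strings CTAATTG and CTAATGG were in none of the 5 peaks over their whole width, beside 5.0% of all whole peaks. They were in 0.412% of all centres, 2.78% of flanking windows and 2.38% of promoters. A Gata-type string, AGATAA or TGATAA, was in 1 of the 5 centres, that of the 540 bp Erg peak, beside 2.18% of all centres, 23.8% of flanking windows and 10.6% of promoters. Over the whole width, the Fli1 peak held a TGATAA as well, which made 2 of 5 peaks beside 25.2% of all whole peaks. Missing letters in these windows say nothing on whether a factor was bound.

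Etv2, Elk3, Etv6 and Gabpa had neither a peak assigned by name nor a TSS inside a peak. Etv2 (chr7:31418635-31421308), the earliest acting of the endothelial Ets factors, was 47060 bp from the nearest peak edge, at a peak assigned to the histone methyltransferase gene Kmt2b. That peak was single-copy, and Etv2 sits among close neighbours, with a stretch of 12.1 kb in which its own TSSs are the closest coding ones. A peak at that distance would not be given to Etv2 by the closest-gene rule.

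Elk3, a ternary complex factor that works with serum response factor and can repress, was 122178 bp from the nearest peak edge, at a peak assigned to Mir7688 with a median of 77 copies. Etv6, a repressor of the family needed in blood formation, was 55912 bp from one at its internal TSS (position 134197583), at a peak assigned to Bcl2l14 with 19222 copies. The other Etv6 TSSs were at least 155425 bp from a peak edge. By the closest coding TSS of the annotation, 2 peaks named Bcl2l14 would be assigned to Etv6. The stretch in which Etv6 is the closest coding gene measured 377 kb, in the longest quintile of genes, of which 71.4% had an assigned peak.

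Gabpa encodes the Ets subunit of GA-binding protein, which acts at many housekeeping promoters. It was 106304 bp from the nearest peak edge, at a peak assigned to Gm10791 with 2913 copies. It shares its start with a close neighbour, and the stretch closest to it measured 0.732 kb. In the 200 bp before its first TSS it held 1 CCGGAAGT, the one match to that string before any TSS of the 9 genes.

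Over the 9 genes, the distance from a coding TSS to the nearest peak edge had a median of 47060 bp, beside 28120.5 bp over all protein-coding genes. It was 0 for Ets1, Ets2 and Elf1 and between 13321 and 122178 bp for the other 6. Within 100 kb of the gene bodies there were 1 to 3 peaks per gene, or 4.37 to 9.87 peaks per Mb, and the genome as a whole held 5.5 per Mb. The lowest and the highest of these densities, at Gabpa and Etv2, belonged to genes without a peak of their own.

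**Figure D3:**
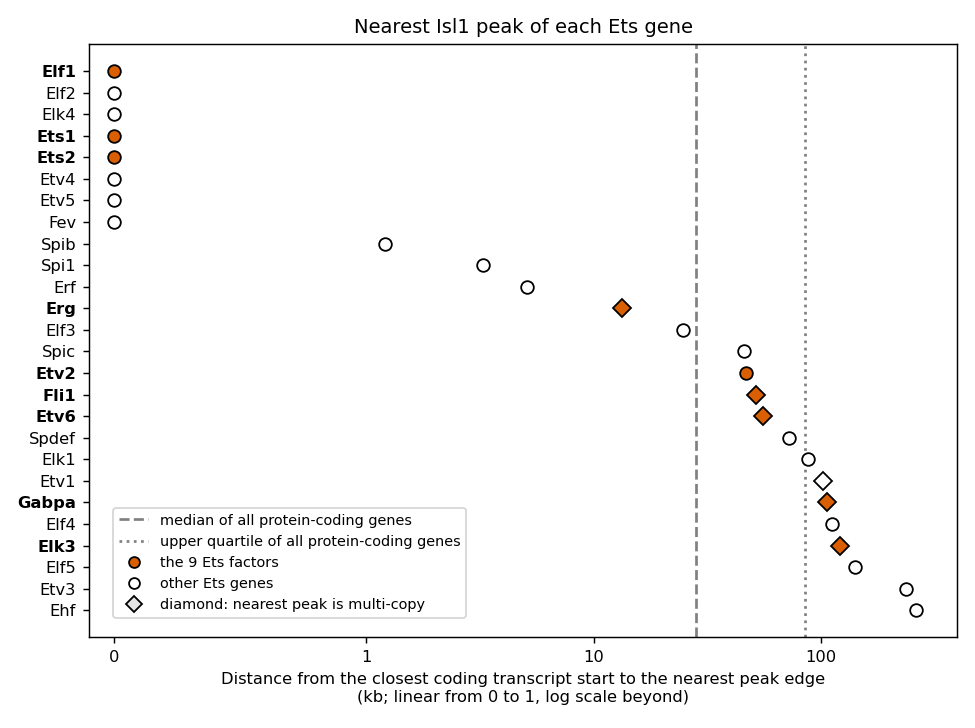
Distance in kb from the closest coding TSS to the nearest peak edge (x axis, linear from 0 to 1 and logarithmic beyond) for the 9 Ets factors (orange) and the other Ets genes with an annotation (white), in rows by distance. The lines give the median (28120.5 bp) and upper quartile (85563 bp) of all protein-coding genes: Elf1, Ets1 and Ets2 are at 0, Erg is left of the median, Etv2, Fli1 and Etv6 are between the lines, and Gabpa and Elk3 are beyond the upper quartile.

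Peaks at gene starts followed promoter GC content across the whole annotation. By the highest GC content within 500 bp of a TSS, 81.7% of the genes in the top quintile had a TSS inside a peak, then 39.6%, 9.39%, 1.41% and 0% in the lower quintiles. Ets1 (65.6%), Elf1 (75.1%) and Gabpa (65.7%) were in the top quintile, and of these Gabpa had no TSS in a peak. Ets2 (61.4%), Fli1 (60.8%), Elk3 (62.6%) and Etv6 (64.3%) were in the next, where Ets2 had one and the other 3 did not. Etv2 (56.9%) and Erg (48.8%) were in quintiles where such peaks were few. The part of promoter composition in these counts was not tested.

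**Figure D4:**
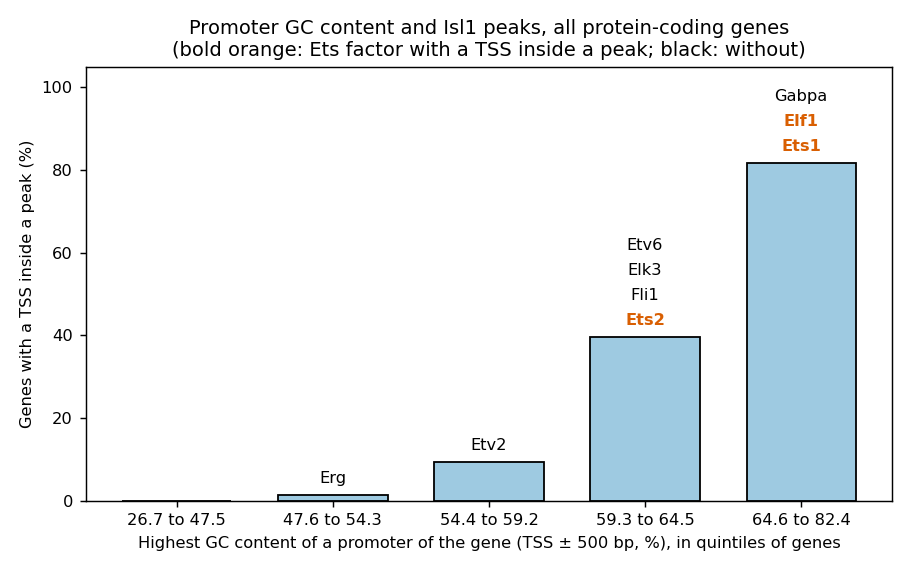
Share of protein-coding genes with a TSS inside a peak (y axis, %) in quintiles of genes by the highest GC content of a promoter (x axis, %, TSS ± 500 bp). The bars rise from 0% to 81.7%, and the names above each bar place the 9 Ets factors, in bold orange where a TSS was inside a peak (Ets1, Elf1 and Ets2).

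Fli1 with Ets1, and Erg with Ets2, stand as head-to-head neighbours. Fli1 and Ets1 are 94.8 kb apart on chromosome 9 and Erg and Ets2 are 115 kb apart on chromosome 16. In each pair Ets1 or Ets2 had a single-copy peak over a TSS, and the peaks named for the other gene covered no TSS and had a multi-copy centre by 31-mers. The arrangements differed in position, since the Erg peaks were in Erg itself and the Fli1 peak was between its pair, nearer to Ets1. The Fli1 peak belongs to Fli1 by its deposited name alone, and by 75-mers it and the 540 bp Erg peak were single-copy.

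Among the other 18 Ets genes, 7 (38.9%) had an assigned peak, beside the 37.5% of protein-coding genes, and their 10 peaks were all single-copy. Elf2, a relative of Elf1, had a peak 51 bp upstream of its TSS (chr3:51143633-51145601). A further peak over an internal Elf2 TSS (chr3:51080036-51081686) carried the name 4930577N17Rik. Elk4, a relative of Elk3, had a peak at 342 bp downstream (chr1:133903973-133905076). Fev, the other member of the Erg subfamily and a factor of serotonergic neurons, had a peak 273 bp downstream of its TSS and another at 2989 bp, in coding sequence.

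The PEA3 subfamily, which responds to Fgf signalling, had peaks at Etv4, 469 bp downstream of the TSS (chr11:101645568-101646742), and at Etv5, 134 bp downstream (chr16:22439039-22439980), with 2 more intronic Etv5 peaks at 7395 and 30048 bp. Etv1, of the same subfamily, had none. The repressor gene Erf had a peak 5869 bp downstream of its TSS, in coding sequence. Spib had one 1590 bp upstream, inside an intron of Pold1, a DNA polymerase gene.

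No peak was assigned to Ehf, Elf3, Elf4, Elf5, Elk1, Etv1, Etv3, Etv3l, Spdef, Spi1 or Spic. Elf4 and Elk1 are on the X chromosome, where 2.57% of 856 genes had a TSS inside a peak. Etv3l was not in the annotation used here. At Spi1, the PU.1 gene of blood cells, a peak at the end of the gene (chr2:90955203-90956089) carried the name of its neighbour Mybpc3, a cardiac sarcomere gene. Another peak, named Slc39a13 (chr2:90918737-90919273), was the nearest to a Spi1 TSS, with its edge 3274 bp away. Over all 27 Ets genes, 11 (40.7%) had an assigned peak, beside 37.5% of protein-coding genes. A TSS inside a peak was found at 8, beside 26.2% of annotated genes, and Etv3l could not enter that count. Both counts were near the shares over all genes.

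Of the partners of Gabpa, Gabpb1 had a peak 317 bp downstream of its TSS (chr2:126500275-126501748) and Gabpb2 had none. Gabpb1 encodes a beta subunit that joins Gabpa in GA-binding protein. So 1 of the 3 genes of this complex looked at here had a peak, beside 37.5% of protein-coding genes. A count over 3 genes does not set the complex apart from genes at large.

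Genes of endothelial cells, many of which Ets factors act on, had an assigned peak in 11 of 24 cases (45.8%), beside 37.5% of protein-coding genes. A peak within 1 kb was found at 4 of the 24, beside 23.2% of protein-coding genes. These were Flt1, a VEGF receptor gene (17 bp upstream), and Flt4, the VEGF-C receptor gene of lymphatic vessels (89 bp). The others were Ramp2, which encodes a partner of the adrenomedullin receptor (82 bp), and Egfl7, which encodes a secreted endothelial protein (198 bp). The edge of the Flt4 peak was 80 bp from the annotated coding TSS of Flt4, so that peak did not cover it. Of the 11 genes, 4 had multi-copy peaks alone and 5 had peaks beyond 10 kb alone. The 13 without a peak included Kdr, the main VEGF receptor gene, Tie1, Pecam1 and Aplnr.

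Other transcription factors of endothelial or blood development had an assigned peak in 14 of 15 cases (93.3%), beside 37.5% of protein-coding genes. Sox7 was the exception. By the stretch closest to a gene, Foxc1, Foxc2, Sox17, Runx1, Nr2f2, Hey2 and Mecom were in the longest quintile, where the share was 71.4%. By promoter GC content, Foxc1, Lmo2, Gata2, Klf2, Nr2f2, Hey2 and Sox7 were in the top quintile, where it was 80.6%. The part of either in this count was not tested, and the list was chosen with earlier results known. Of the 14 genes, 2 had multi-copy peaks alone and 2 had peaks beyond 10 kb alone. With single-copy peaks alone, or with peaks within 10 kb alone, the count was 12, beside 27.6% and 27.2% of protein-coding genes. A peak within 1 kb of the TSS was found at 9 of the 15, beside 23.2% of protein-coding genes. Foxc2, whose product binds beside Ets proteins at endothelial enhancers, had one at 913 bp and Foxc1 at 153 bp. Lmo2, which encodes a bridging protein of the Tal1 complex, had one at 156 bp, and Runx1, needed for the first blood stem cells, at 268 bp upstream. Sox18, a factor of arterial and lymphatic vessels, had one at 546 bp. Klf2 had one at 476 bp, Hhex at 77 bp, Nr2f2 at 398 bp and Mecom at 577 bp. The edge of the Hhex peak was 1013 bp from the closest annotated coding TSS, so it covered none. Tal1, Lyl1 and Gata2 had their closest peaks 5532, 4038 and 1337 bp downstream of the assigned TSS. Those of Sox17 and Hey2 lay 16523 bp downstream and 212501 bp upstream. Sox7, like Etv2, had no assigned peak.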

How the data were processed

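Isl1 ChIP and input libraries of CPCs were described by 1 peak list. Per the methods and labels, the authors aligned reads to mm9 with bowtie2, removed duplicates with Picard 1.136, called peaks with MACS14, dropped blacklisted regions, kept areas common to both replicates with bedtools 2.15 (intersect -wa) and assigned each peak to the closest TSS. The deposited values were positions and signed distances in bp, and the list had 14165 lines. Starts may count from 0 or 1.

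Peaks were compared with NCBIM37 (the mm9 sequence) and GENCODE vM1 in Python 3.11.15 with numpy 2.4.6, pandas 2.3.3 and numba 0.67.0, and plotted with matplotlib 3.10.9. Of the gene names, 99.9% matched a RefSeq table of GRCm38.p6, used for names, the protein-coding class and the tRNA gene within Elf1. The genes on either side of a peak, and their distances, came from GENCODE vM1. Copy numbers were exact counts of 31-mers on both strands. Of the peaks, 36.7% had a distance within 2 bp of that annotation. Scripts were tested on simulated data. The Ets factors and all gene lists were chosen with earlier results of these data known. All 9 Ets factors were named, with other Ets genes that had a peak, listed genes with a peak within 1 kb, and neighbours of distal peaks. Genes named outside this rule, such as Kdr and Sox7, were chosen after their values were seen. No test was run, since no value had replicates.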

Additional observations from a re-analysis of the deposited data

How the results depend on the processing

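Of 49 alternatives over 14 results, 38 stayed within 1.5 times the reported count, or within 1 SD over the 5 peaks for a median, and 11 moved. With single-copy peaks alone, or with peaks within 10 kb alone, 2 Ets factors (Ets1 and Ets2) had 2 peaks, in place of 4 and 5, while the share of protein-coding genes with a peak went from 37.5% to 27.6% and 27.2%. By the closest coding TSS of the annotation, 8 peaks fell to 4 Ets factors: 3 to Ets1, 2 to Erg, 2 to Etv6, 1 to Ets2 and 0 to Fli1. With 75-mers, or over whole peaks, 1 of the 5 peaks was multi-copy, in place of 3. Gata-type strings were in 2 whole peaks, in 0 of the central 100 bp and in 1 of the central 200 bp. Endothelial genes with a peak numbered 6 within 10 kb and 7 with single-copy peaks alone, in place of 11 of 24, under the same fall over all genes. The causes were not tested beyond what each setting removes.

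No replicate was left out in turn: the peaks of both immunoprecipitations were deposited as 1 combined list. No paired analysis was possible because the input and the immunoprecipitations share fewer than 2 replicate numbers and no result came from a test. The list has no heights. Weak and strong peaks were not distinguished, and a gene without a peak was not shown to be unbound.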
